A study of Mus musculus with 6 samples.

Results

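This account follows 8 mature miRNAs that were taken up by name because each has been studied in rodent seizure models: mmu-miR-134-5p, mmu-miR-135a-5p, mmu-miR-203-3p, mmu-miR-22-3p, mmu-miR-184-3p, mmu-miR-187-3p, mmu-miR-33-5p and mmu-miR-551b-3p (written below without the mouse prefix mmu). All 8 had a row of their own among the 1926 miRNA rows of the deposited table. The libraries came from extracellular vesicles (EVs, membrane particles shed by cells) isolated from mouse brain tissue. Of the libraries, 3 were from after status epilepticus (prolonged seizures, SE-BDEV) and 3 from controls (CON-BDEV), all titled day 10. The labels do not state the event from which days were counted, the means of evoking seizures, or the strain, age, sex and number of mice behind a library. Because separate mice are not stated, p-values measure the spread between these libraries, which may be technical. The values are RPM, reads of a miRNA scaled so that the miRNA rows of every library have the same total.

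A miRNA is cut from a hairpin precursor as 1 of a pair of arms, named 5p and 3p, and guides a silencing complex to messenger RNAs that match its seed, bases 2 to 8 from its 5′ end. Vesicles carry miRNAs between cells, and their content in brain tissue reflects which cells release them as well as what each vesicle holds. In bulk libraries such as these, fewer vesicles from a cell type and less of a miRNA per vesicle cannot be told apart. Several members act on excitability in rodents. miR-134 restrains the spine-shaping kinase Limk1 in neurons, and blocking it reduces seizures in mice. miR-135a acts on Mef2a, a transcription factor that limits excitatory synapses. miR-203 acts on Glrb, a subunit of the inhibitory glycine receptor. miR-22 acts on P2rx7, the ATP-gated receptor of neuroinflammation. miR-184 has been linked to neuronal survival after seizures, miR-187 to the potassium channel Kcnk10, and miR-33 to cholesterol export.

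The mature sequences below, matched by name to RefSeq (GRCm38.p6) for 7 of the 8 members, show what each row counts. They are written 5′ to 3′ with the seed in capitals, and the 7 seeds all differ.
miR-134-5p: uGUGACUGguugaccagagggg
miR-135a-5p: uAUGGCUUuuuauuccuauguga
miR-203-3p: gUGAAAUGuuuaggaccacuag
miR-22-3p: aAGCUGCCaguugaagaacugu
miR-184-3p: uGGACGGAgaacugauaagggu
miR-33-5p: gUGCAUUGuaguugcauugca
miR-551b-3p: gCGACCCAuacuugguuucag

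Positions of the hairpins are given in GRCm38.p6, and genes over them from GENCODE M21. The deposited rows carry no coordinates and the submitters' notes name mm9, so these positions describe the sequences and not the authors' alignment. The arms of Mir134 span chr12:109734145-109734203 on the plus strand, in an exon of the non-coding RNA Mirg. Those of Mir203 span chr12:112130889-112130948 (plus), outside any GENCODE M21 host gene, and the RefSeq entry of the relative miR-203b-3p (chr12:112130887-112130908, minus) overlaps them on the opposite strand. miR-135a-5p is encoded at Mir135a-1, chr9:106154140-106154200 (plus), and with the same letters at Mir135a-2, chr10:92072104-92072163 (minus), so its row cannot tell these hairpins apart. The Mir135a-1 hairpin lies in an intron of D030055H07Rik and opposite an exon of Glyctk, and Mir135a-2 lies in an intron of Rmst. Mir22 spans chr11:75463734-75463793 (plus), in an exon of its host transcript Mir22hg that also overlaps an exon of Tlcd2. Mir184 spans chr9:89802263-89802323 (minus) outside any GENCODE M21 host gene, Mir33 spans chr15:82198127-82198188 (plus) in an intron of the cholesterol regulator Srebf2, and Mir551b spans chr3:29416840-29416899 (plus) in an intron of Egfem1.

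Libraries held between 4400167 and 9391887 reads, and depth did not differ between SE-BDEV and CON-BDEV beyond the spread (exact permutation test, two-sided, p = 0.7, smallest possible 0.1). CON-BDEV 1 (4400167 reads) and SE-BDEV 2 (4996073 reads) were the shallowest. Both libraries numbered 3 stand apart by miR-24-3p, which was listed at 0 in the other 4, so the members' differences are also given without them. Neuronal marker miRNAs were present in every library, with a summed level of 19455 to 37364 RPM in SE-BDEV and 23260 to 28492 RPM in CON-BDEV (5 of 5 markers above 0). Of the markers of other cells, the red cell miRNAs miR-451a and miR-144-3p and the oligodendrocyte miRNA miR-219a-5p were listed at 0 in all libraries. The other marker of each list was present. The oligodendrocyte miRNA miR-338-3p had 160 to 275 RPM in SE-BDEV and 110 to 143.9 RPM in CON-BDEV, with no overlap, and the red cell miRNA miR-486a-5p had 102 to 111 RPM in SE-BDEV and 83.6 to 199 RPM in CON-BDEV. The microglial and white blood cell list summed to 329 to 466 RPM in SE-BDEV and 123.6 to 161 RPM in CON-BDEV (5 of 5 above 0 in at least 1 library). It holds 2 of the 3 miRNAs called below, miR-142a-5p and miR-155-5p, so its sum is not separate from those calls. On that list miR-142a-3p and miR-223-3p were also higher in SE-BDEV without overlap. miR-150-5p overlapped, at 81.2, 61.6 and 49.3 RPM in SE-BDEV and 77.7, 63.8 and 88.5 RPM in CON-BDEV.

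The 8 miRNAs were a small part of the vesicle miRNA. They summed to 942 to 1555 RPM in SE-BDEV and 1131 to 1211 RPM in CON-BDEV, and miR-187-3p alone made up 74.0% to 82.8% of that sum over the 6 libraries. By mean over the 6 libraries the order was miR-187-3p (935 RPM, 51st of the 1926 rows), miR-22-3p (116 RPM), miR-134-5p (65.9 RPM), miR-184-3p (43.2 RPM), miR-203-3p (18.1 RPM), miR-551b-3p (7.00 RPM), miR-135a-5p (5.51 RPM) and miR-33-5p (0.385 RPM). A read covers a whole mature miRNA of 21 to 23 bases, so these levels need no length correction, though the capture of each sequence by the library kit may differ. No use of molecular identifiers is named, so reads are not shown to equal molecules. miR-187-3p and miR-22-3p each lay above the next member in all 6 libraries with no overlap of ranges. miR-134-5p and miR-184-3p overlapped in range (54.4 to 79.7 and 28.7 to 63.6 RPM), although miR-134-5p was the higher in each of the 6 libraries. miR-551b-3p and miR-135a-5p did not separate, with miR-551b-3p the higher in 4 of 6 libraries.

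**Figure D1:**
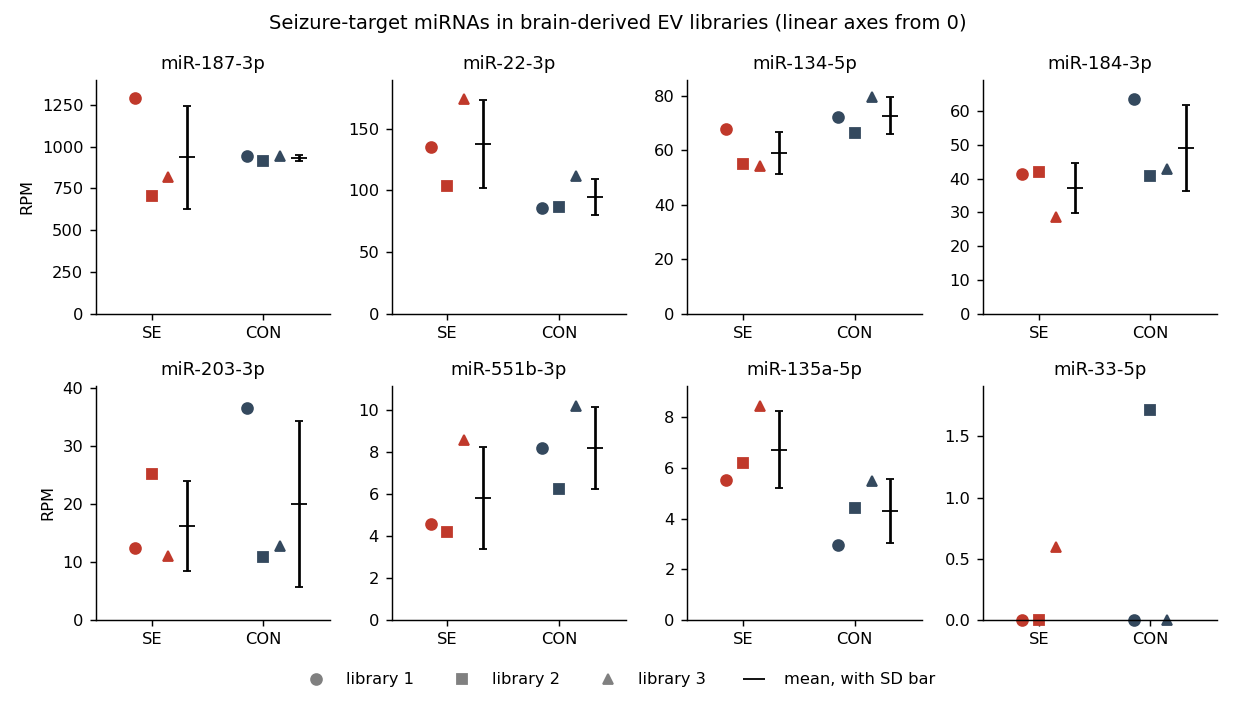
RPM of each of the 8 miRNAs in the 3 SE-BDEV and 3 CON-BDEV libraries, on linear axes that start at 0 and differ between panels; symbols mark the library number and bars give mean and SD, left out for miR-33-5p, which is listed at 0 in 4 libraries. Points of the groups overlap in 7 of the 8 panels; for miR-135a-5p the lowest SE-BDEV value (5.54 RPM) lies just above the highest CON-BDEV value (5.47 RPM).

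No member passed the test between SE-BDEV and CON-BDEV. The 5 members with a mean of 10 RPM or more were tested with limma on log2(RPM + 1) together with every other miRNA at that level, and 0 of 5 had an adjusted p under 0.05 or an unadjusted p under 0.05. In the same fit 3 of the 308 miRNAs tested (0.974%, all higher in SE-BDEV and 0 lower) had an adjusted p under 0.05 and 32 (10.4%) an unadjusted p under 0.05. The called miRNAs, none of them a member, were miR-142a-5p, miR-21a-5p and miR-155-5p. With the limit lowered to a mean of 1 RPM, 3 of 580 passed (0.517%), and with no limit 3 of 803 (0.374%), again with 0 members. An adjusted p is present in the authors' deposited table for 7 members, and it ran from 0.598 to 0.997. In that deposited table of the authors 7 of 625 miRNAs (1.12%) had an adjusted p under 0.05. At an unadjusted p under 0.05 it held 0 of the 8 members, against 6.52% of the 797 miRNAs with a p-value in the authors' deposited table. With no limit on the mean, all 8 members had the same sign of log2 difference in limma as in the authors' deposited table. Both come from the same 6 libraries, and the sign of miR-33-5p rests on few reads. Of the 5 tested members 0 had groups that did not overlap, against 50 (16.2%) of the 308, 33 (10.7%) of them with SE-BDEV higher. The nearest members to the 10 RPM limit were miR-203-3p inside and miR-551b-3p outside.

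miR-22-3p had the largest positive difference of the 5 tested. It stood at 135.1, 103 and 174 RPM in SE-BDEV 1, 2 and 3, against 85.5, 86.8 and 111 RPM in CON-BDEV 1, 2 and 3. The groups overlapped by a single library each, SE-BDEV 2 lying below CON-BDEV 3. Means were 137.5 ± 35.5 RPM in SE-BDEV and 94.5 ± 14.5 RPM in CON-BDEV (SD, n = 3 each). The log2 difference was 0.52 ± 0.32 (SE), with a 95% interval of -0.17 to 1.20 (limma adjusted p = 0.570). The other arm, miR-22-5p, was measured too, at 23.9, 17.8 and 18.1 RPM in SE-BDEV and 8.41, 12.03 and 20.2 RPM in CON-BDEV, a log2 difference of 0.59 ± 0.37 (SE, limma adjusted p = 0.571). It was 0.32 without CON-BDEV 1, 0.91 without CON-BDEV 3 and 0.97 without both libraries numbered 3.

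The ratio of the arms within a library does not depend on how that library was scaled, except through the 1 RPM added to each arm before the log2 ratios below. The log2 ratio of miR-22-3p to miR-22-5p was 2.71 ± 0.43 in SE-BDEV and 2.79 ± 0.40 in CON-BDEV (SD, n = 3 each, exact permutation p = 0.9, adjusted over 2 ratios 0.9). The same ratio for miR-187 was 5.45 ± 0.59 in SE-BDEV and 5.55 ± 0.71 in CON-BDEV (SD, n = 3 each, exact permutation p = 0.8, adjusted 0.9). With 3 against 3 libraries the smallest possible p is 0.1, so neither ratio could have passed.

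By root-mean-square difference of centred log2(RPM + 1) over the 6 libraries, the tested miRNA whose profile was nearest to miR-22-3p was miR-126a-3p (0.102, against a median of 0.456 to all tested miRNAs). Here and for the members below, the nearest profile lies under the median by construction, so this gap is not a test of likeness. miR-126a-3p, an endothelial miRNA, stood at 4362, 3572 and 5614 RPM in SE-BDEV and 2571, 3259 and 3893 RPM in CON-BDEV. As with miR-22-3p, SE-BDEV 3 was highest and CON-BDEV 1 lowest. The endothelial markers (2 of 2 above 0) summed to 4116 to 6342 RPM in SE-BDEV and 2828 to 4276 RPM in CON-BDEV. They are miR-126a-3p itself and miR-126a-5p, the other arm of its hairpin. Most of the sum is miR-126a-3p, so the sum is not separate from the values above. The part of endothelial material in the miR-22-3p values was not tested.

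miR-134-5p, the neuronal miRNA whose blockade lowers seizures in mice, had lower values in SE-BDEV without passing the test. It stood at 67.9, 55.0 and 54.4 RPM in SE-BDEV, against 72.3, 66.4 and 79.7 RPM in CON-BDEV. SE-BDEV 2 and 3 were the lowest of the 6, while SE-BDEV 1 lay just above CON-BDEV 2. Means were 59.1 ± 7.64 RPM in SE-BDEV and 72.8 ± 6.64 RPM in CON-BDEV (SD, n = 3 each), and the log2 difference was -0.30 ± 0.29 (SE, 95% interval -0.92 to 0.33, limma adjusted p = 0.735). These values rest on 275 to 638 reads per library. Its other arm, miR-134-3p, had 14, 4 and 12 reads in SE-BDEV and 5, 0 and 18 reads in CON-BDEV, too few to compare.

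Neighbours of miR-134 in the imprinted Mirg cluster gave both signs. miR-382-5p is encoded at a start position of -364 bases relative to miR-134-5p on the same strand (negative meaning upstream) and was far more abundant. It stood at 10443, 11197 and 9466 RPM in SE-BDEV and 13017, 12136 and 13927 RPM in CON-BDEV, with no overlap and SE-BDEV the lower, as for 17 (5.52%) of the 308 tested miRNAs. The log2 difference of miR-382-5p was -0.33 ± 0.17 (SE, limma adjusted p = 0.438). The other neighbours on the list were miR-668-3p (629 bases downstream, log2 difference -0.53), miR-485-3p (801 bases, -0.72), miR-485-5p (-0.39), miR-154-5p (4293 bases, 0.37) and miR-487b-3p (0.24). None of the 6 neighbours tested passed, 4 having lower and 2 higher values in SE-BDEV. The profile nearest to miR-134-5p was that of miR-337-5p (0.0994, against a median of 0.427), at 1515, 1112 and 1090 RPM in SE-BDEV and 1367, 1411 and 1439 RPM in CON-BDEV.

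**Figure D2:**
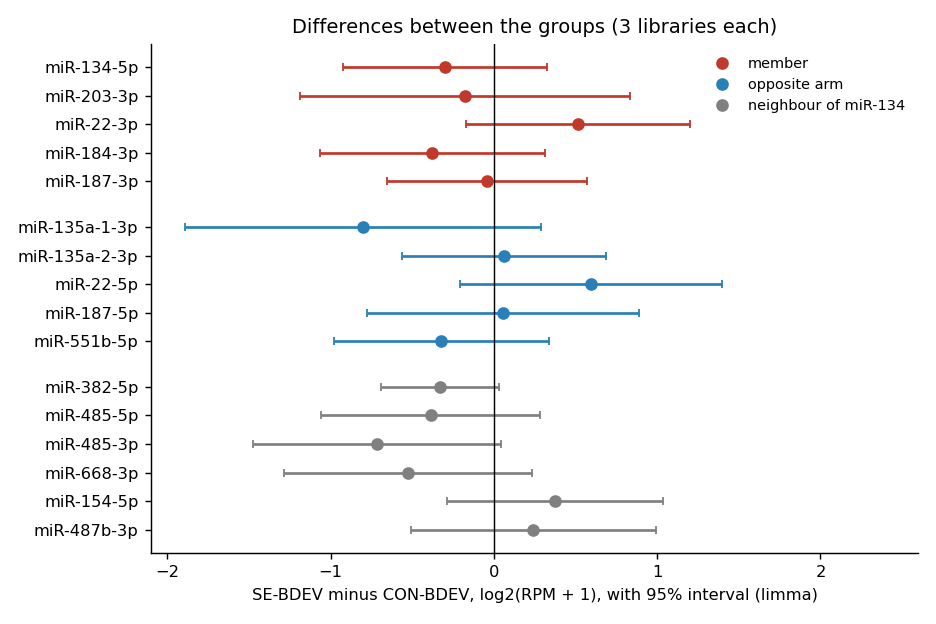
Log2(RPM + 1) difference of SE-BDEV minus CON-BDEV with its 95% interval from limma, for the 5 tested members (red), the 5 tested opposite arms (blue) and the 6 tested neighbours of miR-134 (grey). Every interval includes 0; miR-22-3p (0.52) and miR-22-5p (0.59) lie on the positive side, and miR-134-5p (-0.30) lies beside miR-382-5p (-0.33) on the negative side.

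miR-187-3p, the most abundant member, had nearly the same mean in both groups. It stood at 1288, 706 and 816 RPM in SE-BDEV and 942, 913 and 945 RPM in CON-BDEV. The SE-BDEV libraries thus held both the highest and the lowest values, with the CON-BDEV values close together between them. Means were 937 ± 309 RPM in SE-BDEV and 933 ± 17.3 RPM in CON-BDEV (SD, n = 3 each), and the difference in spread was not tested. The log2 difference was -0.04 ± 0.28 (SE, 95% interval -0.65 to 0.57, limma adjusted p = 0.963). At 3528 to 12095 reads per library, counting error is small beside the spread between SE-BDEV libraries. Its other arm, miR-187-5p, ranged from 16.3 to 24.2 RPM in SE-BDEV and from 12.6 to 33.9 RPM in CON-BDEV. The nearest profile to miR-187-3p was that of the merged row miR-103-3p/107-3p (0.125, against a median of 0.429), which was also highest in SE-BDEV 1 (4606 RPM) and lowest in SE-BDEV 2 (2826 RPM).

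miR-184-3p, linked to neuronal survival after seizures, stood at 41.4, 41.8 and 28.7 RPM in SE-BDEV and 63.6, 40.8 and 42.9 RPM in CON-BDEV. SE-BDEV 3 was low and CON-BDEV 1 high, and the other 4 libraries lay within 40.8 to 42.9 RPM, so the groups overlapped. Means were 37.3 ± 7.44 RPM in SE-BDEV and 49.1 ± 12.6 RPM in CON-BDEV (SD, n = 3 each), a log2 difference of -0.38 ± 0.32 (SE, 95% interval -1.07 to 0.31, limma adjusted p = 0.678). The other arm, miR-184-5p, was listed at 0 in all 6 libraries. The nearest profile was that of miR-3097-5p (0.105, against a median of 0.511), likewise highest in CON-BDEV 1 (58.0 RPM) and lowest in SE-BDEV 3 (23.4 RPM).

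miR-203-3p, which acts on a glycine receptor subunit, had the widest range over the 6 libraries among the 5 tested, its highest value being 3.39 times its lowest. It stood at 12.4, 25.2 and 11.1 RPM in SE-BDEV and 36.6, 10.8 and 12.8 RPM in CON-BDEV. One library of each group was high, CON-BDEV 1 and SE-BDEV 2, and the other 4 lay within 10.8 to 12.8 RPM. Those high libraries are the shallowest of the 6, and the values rest on 75 to 161 reads. The part of depth in these values was not tested. The log2 difference was -0.18 ± 0.47 (SE, 95% interval -1.19 to 0.84, limma adjusted p = 0.921). Without CON-BDEV 1 it was 0.34 and without SE-BDEV 3 it was 0.03, so its sign rested on single libraries. The other arm, miR-203-5p, was listed at 0 throughout.

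Outside the brain miR-203 is an epithelial miRNA, so markers of epithelium are given beside it. The 6 markers on that list, all above 0 in at least 1 library, summed to 32.6 to 37.3 RPM in SE-BDEV and 21.4 to 28.0 RPM in CON-BDEV. The sum was 37.3, 36.6 and 32.6 RPM in SE-BDEV 1, 2 and 3. In CON-BDEV 1, 2 and 3 it was 21.4, 21.6 and 28.0 RPM. miR-203-3p was highest in CON-BDEV 1, next in SE-BDEV 2 and lowest in CON-BDEV 2. The part of epithelial material in the miR-203-3p values was not tested. The skin miRNA miR-205-5p stood at 0, 1.80 and 0 RPM in SE-BDEV and 1.36, 0.614 and 0.912 RPM in CON-BDEV. The nearest profile to miR-203-3p was that of miR-709 (0.202, against a median of 0.761), which was also highest in CON-BDEV 1 (63.2 RPM) and SE-BDEV 2 (42.2 RPM).

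**Figure D3:**
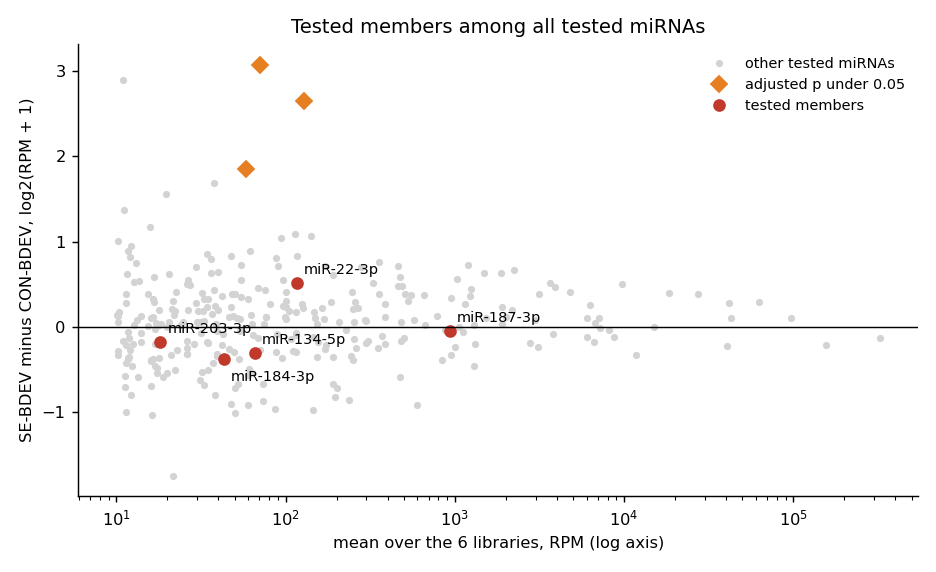
Log2(RPM + 1) difference of SE-BDEV minus CON-BDEV against the mean RPM over the 6 libraries (log axis) for all 308 tested miRNAs. The 5 tested members (red) lie between -0.38 and 0.52 inside the cloud of other miRNAs, and the 3 called miRNAs (orange diamonds) lie above 1.8.

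The other 3 members had a mean under 10 RPM. miR-135a-5p stood at 5.54, 6.20 and 8.44 RPM in SE-BDEV and 2.95, 4.42 and 5.47 RPM in CON-BDEV. The groups did not overlap, SE-BDEV 1 (5.54 RPM) lying just over CON-BDEV 3 (5.47 RPM). At a limit of 1 RPM on the mean, 53 (9.14%) of 580 miRNAs separated in this direction and 78 (13.4%) in either. The values rest on 52, 31 and 57 reads in SE-BDEV and 13, 36 and 36 reads in CON-BDEV. Means were 6.73 ± 1.52 RPM in SE-BDEV and 4.28 ± 1.26 RPM in CON-BDEV (SD, n = 3 each). With the limit lowered to a mean of 1 RPM, the log2 difference was 0.56 ± 0.38 (SE, 95% interval -0.28 to 1.40, limma adjusted p = 0.729).

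The 3p arms of the 2 hairpins that give miR-135a-5p have different sequences, so they can be counted apart, and both are shown here with the seed in capitals.
miR-135a-1-3p: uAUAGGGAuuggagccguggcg
miR-135a-2-3p: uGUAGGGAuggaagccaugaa
miR-135a-2-3p stood at 33.8, 30.8 and 32.4 RPM in SE-BDEV and 30.9, 28.4 and 33.7 RPM in CON-BDEV, a narrow range (log2 difference 0.06 ± 0.29, SE, limma adjusted p = 0.959, and -0.01 with median-of-ratios scaling). miR-135a-1-3p stood at 11.8, 7.61 and 5.04 RPM in SE-BDEV and 28.4, 9.45 and 10.5 RPM in CON-BDEV, with CON-BDEV 1 far above the rest (log2 difference -0.80 ± 0.50, SE, limma adjusted p = 0.571). The 5p arm, the one studied in seizure models, was the scarcer in most comparisons. miR-135a-2-3p exceeded miR-135a-5p in all 6 libraries, by a median ratio of 6.13, even though the 5p row adds up both hairpins. miR-135a-1-3p exceeded it in 5 of 6, the exception being SE-BDEV 3.

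miR-551b-3p was likewise a member scarcer than its other arm, though here the scarcer arm was the 3p. It stood at 4.58, 4.20 and 8.59 RPM in SE-BDEV and 8.18, 6.26 and 10.2 RPM in CON-BDEV, overlapping between the groups, with 21 to 67 reads per library. With the limit at a mean of 1 RPM its log2 difference was -0.47 ± 0.38 (SE, 95% interval -1.32 to 0.37, limma adjusted p = 0.766). Its other arm is the sequence below, again with the seed in capitals.
miR-551b-5p: gAAAUCAAgcuugggugagaccu
miR-551b-5p stood at 23.6, 27.2 and 18.8 RPM in SE-BDEV and 30.7, 26.0 and 30.4 RPM in CON-BDEV and exceeded the 3p arm in all 6 libraries, by a median ratio of 3.95. Its log2 difference was -0.32 ± 0.30 (SE, limma adjusted p = 0.732). For miR-187, miR-22 and miR-134 the member was the more abundant arm in all 6 libraries, with median ratios of 54.1, 6.51 and 45.6 (the last over the 5 libraries in which miR-134-3p was above 0).

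**Figure D4:**
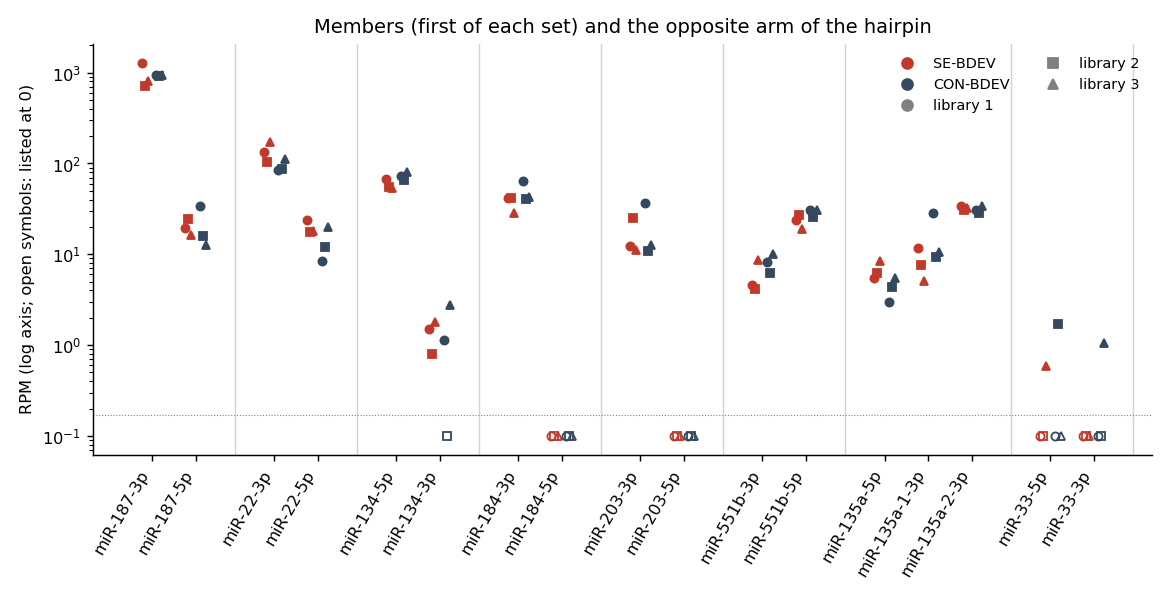
RPM (log axis) of each member, drawn first in its set, and of the opposite arm or arms of its hairpin, with SE-BDEV libraries left of CON-BDEV libraries and open symbols for values listed at 0. miR-551b-5p (18.8 to 30.7 RPM) and miR-135a-2-3p (28.4 to 33.8 RPM) lie above their members in all 6 libraries, and miR-135a-1-3p lies above miR-135a-5p in 5 of 6, while for the other hairpins with both arms detected in most libraries the member lies above.

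miR-33-5p, known for its role in cholesterol export, was near the limit of detection. It was listed at 0, 0 and 0.593 RPM in SE-BDEV and at 0, 1.72 and 0 RPM in CON-BDEV, which is 4 reads in SE-BDEV 3 and 14 reads in CON-BDEV 2. A count of 3 reads corresponds to 0.319 to 0.682 RPM in these libraries, so a level under that may go unseen, and such floors cover counting error only. No fold is given. Its other arm, miR-33-3p, was above 0 in CON-BDEV 3 alone, with 7 reads. Of the listed relatives of other members, miR-135b-5p, of the miR-135 family, stood at 1.065 to 2.81 RPM in SE-BDEV and 0 to 1.37 RPM in CON-BDEV, and miR-203b-3p was above 0 in SE-BDEV 1 alone.

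Without both libraries numbered 3 the log2 differences of the tested members were 0.45 for miR-22-3p, -0.18 for miR-134-5p, -0.29 for miR-184-3p, -0.17 for miR-203-3p and 0.04 for miR-187-3p, and none passed. The untested members miR-135a-5p and miR-551b-3p stood at 0.57 and -0.60 without them. With the replicate number as a block none passed either (limma adjusted p from 0.484 to 0.955), while 10 (3.25%) of the 308 passed in that fit. The median log2 difference of the 5 tested members was -0.18, against 0.06 over all 308. Over all 308 it was -0.008 with median-of-ratios scaling and -0.028 with the total without the 10 most abundant miRNAs. Under the same scalings miR-203-3p, the member at -0.18, was at -0.24 and -0.26. The gap between the medians was not tested. A list of 11 other miRNAs manipulated in rodent seizure studies was chosen with earlier results of these data known. Its count is therefore not a test against the members. It had 9 tested, of which 1, miR-155-5p, passed (222 ± 34.8 RPM in SE-BDEV and 34.7 ± 6.15 RPM in CON-BDEV, SD, n = 3 each, log2 difference 2.65 ± 0.30, SE, limma adjusted p = 0.000284). miR-146a-5p followed at 58.8 ± 25.9 RPM in SE-BDEV and 16.96 ± 7.00 RPM in CON-BDEV (SD, n = 3 each, log2 difference 1.69, limma adjusted p = 0.105). It passed in 5 of 16 alternatives, among them the replicate block (limma adjusted p = 9.34e-05), a pairing that no label states. The highest limma adjusted p of miR-146a-5p among the alternatives was 0.723. The other 7 tested did not pass.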

How the data were processed

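Per the labels, the RNA extraction used a miRNeasy Micro Kit and DNase, and libraries were QIAseq miRNA libraries. The authors deposited RPM values for 6 libraries (3 per group) and a table of their own comparison of 803 miRNAs, which gives a mean normalized signal, log2 fold changes, a test score and p-values. DESeq2 and mm9 are named in the submitters' processing notes. No source used here names the aligner, the counting tool or any use of molecular identifiers.

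All RPM values were whole multiples of 1 step per library (tolerance 0.001 step), taken as 1 read. With median-of-ratios scaling, these counts gave the authors' mean normalized signal with a largest relative difference of 1.39e-09. The smallest listed value was 2 reads, so count models were not used. A listed 0 may hide a single read or a value set to 0.

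The 308 miRNAs averaging at least 10 RPM were tested with limma 3.58.1 (R 4.3.3, statmod 1.5.0). It was fitted to log2(RPM + 1) using a trend on intensity and robust moderation, two-sided, Benjamini-Hochberg adjusted over all of them and called under 0.05. The log2(RPM + 1) scale understates the change of low miRNAs. The fit was also run on simulated data with known changes larger than the members' differences. That run checked the code and does not give the power to detect differences of the members' size. Arm ratios, as log2 with 1 RPM added to each arm, used exact permutation tests (scipy 1.17.1), for hairpins with both arms at a mean of 10 RPM or more. Named miRNAs were the members, their opposite arms, listed relatives and neighbours, listed seizure miRNAs, every called miRNA and the nearest profile to each tested member. Members and lists were chosen with earlier results of these data known. Alternatives covered pseudocounts, filters, scaling, a replicate block, left-out libraries and the authors' deposited table. Plots were made in matplotlib 3.10.9.

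Replicate numbers are shared by the groups. Deviations from the group means correlated at 0.216, 0.202 and 0.462 for libraries numbered 1, 2 and 3, above the bound of 0.1 for treating the numbers as pairs. Libraries of unlike numbers reached 0.336 (SE-BDEV 1 with CON-BDEV 2) and 0.200 (SE-BDEV 2 with CON-BDEV 1), so numbers 1 and 2 were not singled out as pairs. A library numbered 3 with one numbered 1 or 2 gave -0.410 to -0.270. Without miR-24-3p, above 0 only in the pair of libraries numbered 3, the correlations were -0.06, -0.06 and -0.08, so the pairing rests on that miRNA and nothing in the labels states it.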

Additional observations from a re-analysis of the deposited data

How the results depend on the processing

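Among 115 member values under alternatives, tested members changed sign in 5, none passed an adjusted p of 0.05, and 2 untested values moved beyond 1 SD (miR-135a-5p, 0.23 with a pseudocount of 10, and miR-33-5p, -1.87 in the authors' deposited table). The sign changes were miR-203-3p and miR-187-3p with 1 library left out (-0.52 to 0.34 and -0.30 to 0.14) and miR-187-3p without both libraries numbered 3 (0.0401). miR-22-3p stayed at 0.33 to 0.70, miR-134-5p at -0.40 to -0.18 and miR-184-3p at -0.49 to -0.18 under all 16 alternatives each. The untested miR-135a-5p was at 0.37 to 0.72 and miR-551b-3p at -0.75 to -0.31 with 1 library left out. miR-33-5p was at 0.22 without CON-BDEV 2, which held 14 of its 18 reads.

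Among other arms and neighbours, miR-135a-2-3p was at -0.0079, -0.0281 and -0.0111 and miR-187-5p at -0.0124, -0.0327 and -0.0903 with median-of-ratios scaling, the total without the 10 most abundant miRNAs and the authors' deposited table. miR-187-5p was at -0.0905 without both libraries numbered 3 and at -0.22 to 0.46 with 1 library left out, and miR-487b-3p at -0.0324 to 0.53. With 1 library left out miR-668-3p was at -0.76 to -0.24 (-0.83 without both libraries numbered 3), miR-154-5p at 0.19 to 0.61, miR-485-5p at -0.58 to -0.05, miR-485-3p at -1.03 to -0.51, miR-382-5p at -0.39 to -0.27, miR-551b-5p at -0.44 to -0.18 (-0.15 without both) and miR-135a-1-3p at -1.08 to -0.54. Without CON-BDEV 1 miR-135a-1-3p was under the 10 RPM limit and was not tested. The log2 arm ratio difference of miR-22 was -0.08, or 0.11 with a pseudocount of 10 and -0.32 to 0.13 with 1 library left out. That of miR-187 was -0.10, or -0.49 to 0.22. With the replicate block both were as before (exact p = 1, smallest possible 0.25).

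The count of called miRNAs was 3, or 10 with the replicate block (10 also without miR-24-3p, an alternative added after seeing the data), 7 in the authors' deposited table and 2 to 8 with 1 library left out, the 8 without CON-BDEV 2. The block changed no call of a member, an opposite arm or a neighbour, and miR-146a-5p passed with it. The cause of these changes was not tested. The planned edgeR fit was not run, because the values list no single reads.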

Other observations

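CON-BDEV 1, the shallowest library, held the highest of the 6 values for 98 of the 308 tested miRNAs (31.8%), as did SE-BDEV 3 (98), while CON-BDEV 2 held the highest for 4. Among the 16 tested members, opposite arms and neighbours, CON-BDEV 1 was highest for 8. These were miR-184-3p (63.6 RPM), miR-203-3p (36.6 RPM), miR-135a-1-3p (28.4 RPM), miR-187-5p (33.9 RPM), miR-551b-5p (30.7 RPM), miR-485-5p (1466 RPM), miR-485-3p (78.6 RPM) and miR-668-3p (105 RPM). Without CON-BDEV 1, miR-485-5p had a log2 difference of -0.05, against -0.39 with it.

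miR-154-5p, a neighbour of miR-134 in the same imprinted cluster, stood at 844, 524 and 874 RPM in SE-BDEV and 433, 597 and 687 RPM in CON-BDEV. In CON-BDEV 1 it was the lowest of the 6, while miR-485-5p was highest there.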
